A study of Rattus norvegicus with 20 samples.

Results

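The injured hemispheres of 10 rat brains were divided by how strongly they expressed Lgals3, the gene of galectin-3. In each of the 10 ipsilateral libraries the raw Lgals3 count was divided by the raw count of Polr2a, the largest RNA polymerase II subunit, and libraries at a ratio of 0.1 or more were called strong. This gave 7 strong and 3 weak libraries, out of 20 libraries in all, the other 10 being from the contralateral hemispheres. The libraries were thus chosen by the measured Lgals3 and Polr2a counts themselves and by no label of the study. Differences between strong and weak libraries are therefore given as a description, with ranges and medians, and no test was made of them.

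All 20 samples came from snap-frozen brains of female rats with a controlled cortical impact, an experimental traumatic brain injury made by striking the cortex. From every animal there was 1 ipsilateral (injured) and 1 contralateral sample. Some animals had received intranasal human neural stem cells immortalized with L-myc and the others vehicle, and the labels do not say which. A strong or weak response and the treatment therefore cannot be told apart. Neither strain, age nor the time between injury and dissection was given in the labels used here. RNA was counted with the NanoString nCounter, in which barcoded probes are counted singly without amplification.

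After a contusion, resident microglia and blood-derived macrophages take up debris from dying cells and myelin. They raise lysosomal proteins, lipid-handling proteins, complement and molecules of antigen presentation while they do so. Astrocytes around the lesion become reactive and express vimentin, and fibroblast-like cells lay down collagen and fibronectin in the lesion core. Neurons lost or silenced near the lesion take their transcripts with them. In a tissue sample, a change in the number of cells of a type and a change in RNA per cell cannot be told apart.

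The ratio of Lgals3 to Polr2a was 0.242, 0.323, 0.493, 0.545, 0.650, 0.781 and 0.854 in the strong libraries of animals 2, 12, 11, 4, 7, 8 and 6. In the weak libraries it was 0.0276, 0.0286 and 0.0367, in animals 10, 5 and 3. The libraries nearest to the threshold were thus animal 2 inside it and animal 3 outside it, and no library lay between them. All 3 weak libraries lay within the range of the contralateral libraries, 0.0121 to 0.0609. The other 2 genes given as marks of the response divided the libraries in the same way. The widest gap of Cd68 over Polr2a and that of Vim over Polr2a each left the same 7 libraries on the upper side, as did Lgals3 over the housekeeping mean or the total count. Each of these ratios shares Lgals3 or Polr2a with the rule, so they are no independent check of it.

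**Figure D1:**
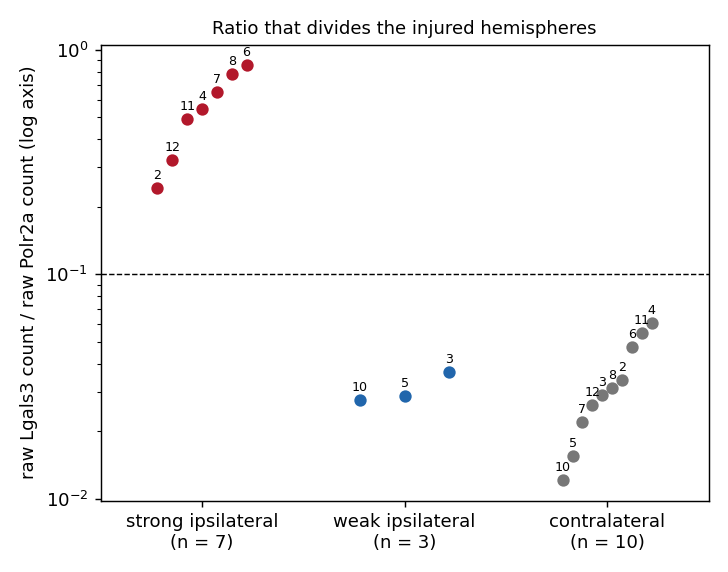
The ratio of raw Lgals3 to raw Polr2a count (log axis) is drawn for 7 strong ipsilateral, 3 weak ipsilateral and 10 contralateral libraries, each point with its animal number, and the dashed line is the threshold of 0.1. The strong libraries lie between 0.242 and 0.854 and the weak ones between 0.0276 and 0.0367, inside the contralateral range.

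The total count over 770 probes ranged from 38015 to 150613 in strong and from 55486 to 109348 in weak libraries. The negative controls, probes without a target, averaged 3 to 7.25 counts in strong and 5.25 to 7.125 in weak libraries. The lowest depth was in the strong library of animal 8, whose housekeeping genes had a geometric mean of 47.5 counts against 101 to 225 in weak libraries. Counts below are scaled counts, the raw count divided by a library factor from 17 housekeeping genes. Genes were described if their mean raw count over the 20 libraries was at least 20, which 192 of the 750 genes of the panel reached beside Lgals3. Differences are those of the medians, strong minus weak, of log2(scaled count + 1). Probe accessions of the panel matched rat RefSeq transcripts in 0 of 770 cases, although 705 of the symbols are also rat symbols, and how well each probe binds rat RNA was not tested.

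In 57 of the 192 genes (29.7%) every strong library lay above every weak library, and in 11 (5.73%) every strong library lay below every weak one. The sets overlapped in the other 124. By the ratio of the medians, 37 of the 57 higher genes differed at least 2-fold and 13 at least 4-fold, whereas 1 of the 11 lower genes differed at least 2-fold. The median difference of all 192 genes was 0.23. This general shift depends on the scaling: it was 0.0014 with TMM factors and -0.24 under median centring, in which every library has the same median. The split moved with it, to 55 higher and 30 lower genes with TMM, 47 and 39 with DESeq2's size factors, 44 and 37 with Polr2a scaling, and 32 and 63 with median centring. Without the weak library of animal 3 the lower genes numbered 19, and without the strong library of animal 4 they numbered 18. Across 7 scalings, 32 genes were higher and 7 lower without overlap in every one. Of the 57 higher genes, 51 would have passed the minimum count without the strong libraries. The other 6 are Ptprc, Col1a1, Psmb8, Rsad2, Ddx60 and C3ar1, which were described only because the strong libraries were high. With the minimum taken over contralateral libraries alone, 53 of 189 genes (28.0%) were higher and 11 (5.82%) lower.

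**Figure D2:**
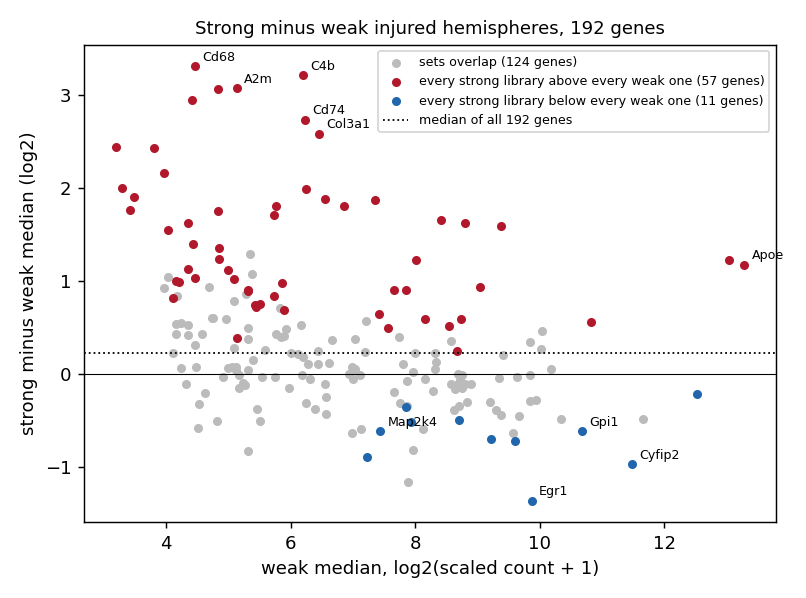
Each point is 1 of 192 genes, placed by its median in the weak libraries (log2 of scaled count + 1) and by the strong minus weak difference of medians (log2). The 57 genes in red lie above in every strong library and the 11 in blue below, and the dotted line is the median of all genes, 0.23.

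Genes of phagocytes were among those with the largest differences. The strong libraries had 173.8, 436 and 818 scaled counts of Lgals3 (lowest, median and highest of 7), against 20.5, 21.1 and 22.7 in the weak libraries, as the rule required. Cd68, a lysosomal membrane protein of phagocytes, had 86.9, 218 and 301 scaled counts in strong libraries and 16.2, 21.1 and 23.4 in weak ones. The lowest strong library was thus well clear of the highest weak one, and the medians differed 10.3-fold (log2 difference 3.31). Strong libraries had 41.4, 48.4 and 72.6 scaled counts of Ptprc, the leukocyte surface phosphatase CD45, against 7.30, 8.11 and 13.2 in weak libraries. Fcer1g, the signalling chain of Fc receptors, had 171.8, 299 and 436 against 67.3, 74.5 and 87.6, a log2 difference of 1.99. Mrc1, the mannose receptor of perivascular and lesion macrophages, had 33.5, 47.2 and 116.7 against 14.6, 15.4 and 20.5. Of the 13 listed markers of microglia and macrophages 9 were on the panel and 4 were abundant enough, and all 4 were higher without overlap, against 29.7% of all genes, with a median difference of 2.21 against 0.23 for all genes. One of the 4, Ptprc, passed only through the strong libraries.

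Among genes of phagocytosis, lysosomes and Fc receptors, 7 of the 8 described members (of 16 on the panel) were higher without overlap, against 29.7% of all genes, with a median difference of 1.42. All 8 would have passed the minimum without the strong libraries. Lyz2, the lysozyme of myeloid cells, had 385, 596 and 1121 scaled counts in strong libraries, against 126.4, 162 and 164 in weak libraries. Apoe, the main lipid carrier of the brain, had 16466, 22513 and 29267 scaled counts in strong and 8412, 9971 and 11757 in weak libraries. Abca1, which exports cholesterol onto apolipoproteins, had 767, 1077 and 1623 in strong libraries and 285, 341 and 373 in weak ones, a difference of 1.66. The lysosomal membrane protein Lamp2 was closer, at 352, 430 and 676 against 271, 285 and 292, and its sets overlapped with Polr2a scaling and with median centring. Mertk, a receptor for apoptotic cells, was the member whose sets overlapped, with a difference of 0.22.

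Among the genes of largest difference were 3 that belong to other arms of the injury response. Vim, whose filament protein vimentin is made by reactive glia and mesenchymal cells, had 99.0, 163.6 and 339 scaled counts in strong libraries and 16.2, 20.3 and 24.8 in weak ones. The protease inhibitor A2m (alpha-2-macroglobulin) had 106.1, 294 and 826 in strong libraries and 24.3, 34.1 and 36.5 in weak ones. Anxa1, annexin A1, a mediator that limits leukocyte entry, had 106.7, 238 and 402 in strong libraries and 17.8, 27.6 and 35.8 in weak ones. The differences of these genes were 2.95, 3.08 and 3.06 in that order. All 3 genes kept the separation under all 7 scalings.

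**Figure D3:**
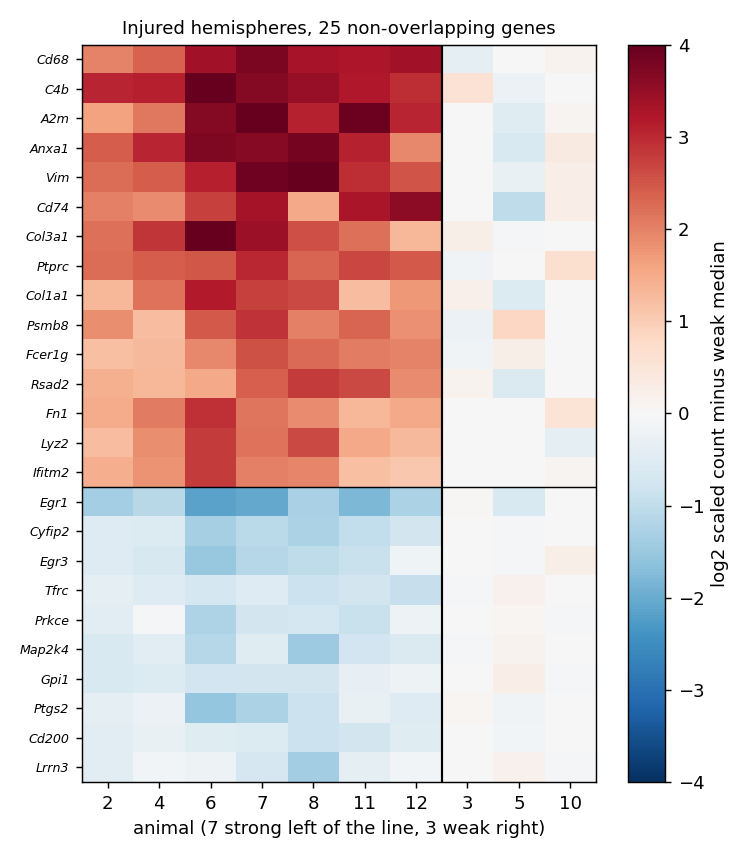
Colour gives the log2 scaled count of each ipsilateral library minus the median of the weak libraries, for 15 of the genes with the largest positive and the 10 with the largest negative difference among those whose sets do not overlap. The 7 strong libraries stand left of the vertical line and the 3 weak ones right of it, and in all 25 genes every strong library lies on the same side of every weak one.

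C4b, a component of the classical complement pathway, had 572, 679 and 1202 scaled counts in strong libraries and 61.6, 72.3 and 109.5 in weak ones. Its difference of 3.21 was close to that of Cd68, and here too the sets were far apart. C3ar1, the receptor for the C3a fragment, had 24.3, 35.8 and 69.3 against 8.92, 17.5 and 17.8, and passed the minimum only through the strong libraries. Masp1, a protease of the lectin pathway, overlapped, with 69.3, 101.9 and 143 in strong libraries and 81.1, 86.0 and 89.2 in weak ones. These were the 3 described genes among 22 complement genes on the panel.

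All 4 described genes of antigen presentation, of 8 on the panel, were higher without overlap, against 29.7% of all genes, with a median difference of 1.62. Cd74, the invariant chain that guides class II molecules, had 215, 497 and 894 scaled counts in strong libraries and 35.7, 73.8 and 89.2 in weak ones. The immunoproteasome subunit Psmb8 had 21.9, 38.1 and 70.8 in strong libraries, against 7.30, 8.77 and 16.2 in weak libraries. It passed the minimum only through the strong libraries. Its partner Psmb9 had 33.3, 44.1 and 86.6 against 14.6, 21.1 and 30.7, and Psmb10 had 49.6, 66.9 and 93.5 against 24.3, 27.8 and 38.9. With median centring 1 of the 4, Cd74, stayed apart, against 16.7% of all genes higher in that setting. The strong library of animal 8 was the lowest of the 7 for Cd74, and that of animal 12 the highest.

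All 6 described interferon response genes, of 23 on the panel, were higher without overlap, against 29.7% of all genes. Their median difference was 1.52. With median centring 4 of the 6 stayed higher without overlap, against 16.7% of all genes in that setting. Ifitm2, a membrane protein that restricts viral entry, had 247, 406 and 807 scaled counts in strong libraries and 113.5, 115.2 and 125.0 in weak ones. Ifi44, an interferon-induced cytosolic protein, had 135.0, 189.5 and 272 against 43.1, 53.5 and 60.0. Rsad2, the antiviral enzyme viperin, had 27.4, 40.9 and 76.2 in strong libraries and 6.49, 10.2 and 11.4 in weak ones, and it passed the minimum only through the strong libraries. The weak libraries lay close together for Ifitm2, while the strong ones spread over more than 1 log2 unit.

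**Figure D4:**
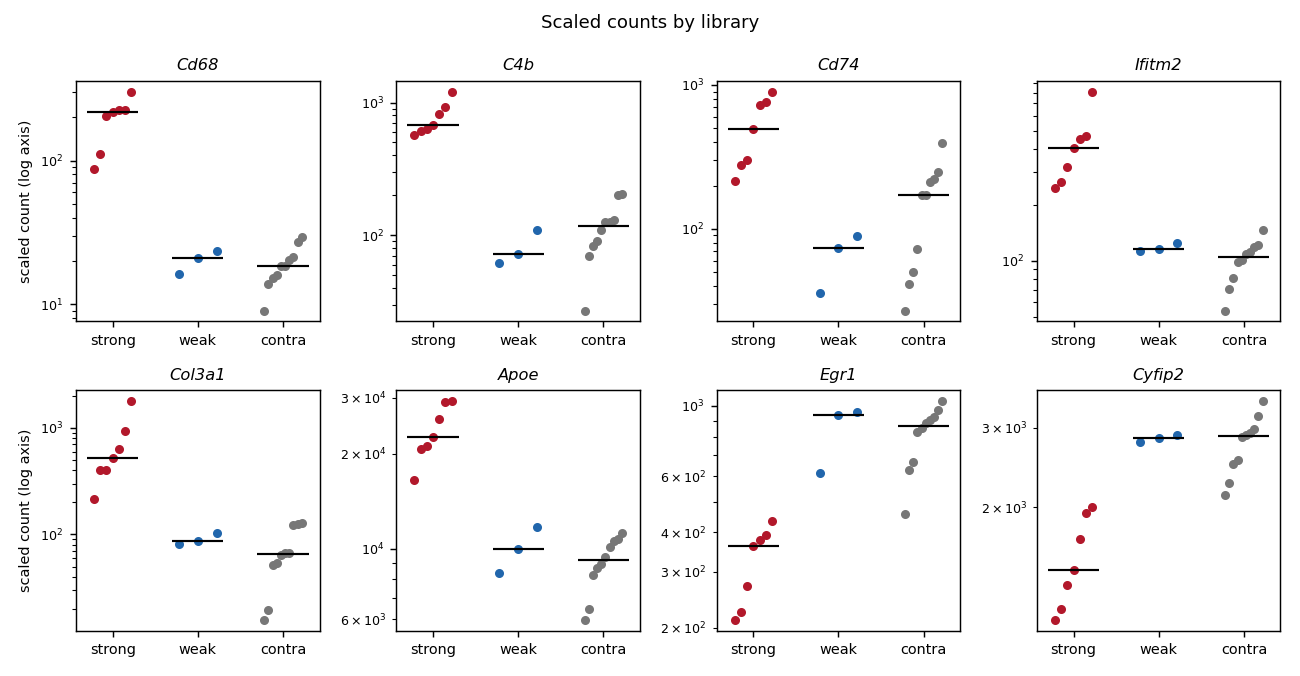
Scaled counts (log axis) are drawn for 8 genes in the 7 strong ipsilateral, 3 weak ipsilateral and 10 contralateral libraries, with a line at each median. Strong libraries lie above the weak ones for Cd68, C4b, Cd74, Ifitm2, Col3a1 and Apoe and below them for Egr1 and Cyfip2.

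The list of fibroblast and matrix genes also holds integrins and transforming growth factors. Of its 8 described members (of 11 on the panel) 5 were higher without overlap, against 29.7% of all genes. Col3a1, a fibrillar collagen of scar tissue, had 217, 523 and 1776 scaled counts in strong libraries and 81.1, 86.2 and 102.2 in weak ones. Col1a1, the chain of type I collagen, had 35.8, 69.1 and 141 against 9.73, 14.6 and 17.0, and passed the minimum only through the strong libraries. Strong libraries had 232, 343 and 706 scaled counts of Fn1 (fibronectin), against 90.8, 92.5 and 135.9 in weak libraries. Animal 6 had the highest value of the 7 strong libraries for each of these 3 genes. Tgfb1, the transforming growth factor isoform tied to scar formation, had 100.05, 172.4 and 193.2 in strong libraries and 43.8, 51.9 and 73.8 in weak ones, a difference of 1.71. The other isoforms overlapped, with differences of 0.24 for Tgfb2 and -0.10 for Tgfb3.

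Of 4 described endothelial genes 1 was higher without overlap, a share near the 29.7% of all genes. This was Cdh5, the VE-cadherin of endothelial junctions, with 43.5, 67.9 and 127 scaled counts in strong libraries and 29.2, 30.8 and 38.0 in weak ones. The receptor Tie1 differed by a similar amount (1.07), but its sets overlapped, with 62.7, 86.3 and 114.3 in strong and 34.9, 40.6 and 75.3 in weak libraries. The efflux transporter Abcb1a and the angiopoietin receptor Tek had differences of 0.43 and 0.37 and overlapped. With median centring 0 of these 4 genes stood apart, against 16.7% of all genes higher and 32.8% lower in that setting. Vegfa, the main angiogenic factor, overlapped, with 532, 595 and 779 in strong libraries against 598, 812 and 921 in weak ones, but was lower without overlap under TMM, DESeq2, Polr2a scaling and median centring.

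Signalling genes were mostly mixed between the sets. Of 7 described cytokine receptor and STAT genes 3 were higher without overlap, against 29.7% of all genes. Stat3, a transcription factor of reactive astrocytes, had 329, 433 and 557 scaled counts in strong libraries and 221, 230 and 251 in weak ones. The shared receptor subunit Il6st had 305, 377 and 520 against 197, 201 and 227, and Il13ra1, which binds interleukin-13, had 56.6, 68.0 and 119.7 against 25.95, 32.9 and 34.1. All 3 stayed apart under the 7 scalings. Of 14 described genes of Toll-like receptors and NF-kB signalling 3 were higher without overlap, a share below the 29.7% of all genes, and the median difference of the 14 was 0.11, against 0.23 for all genes. The 3 were Nfkb2, an NF-kB subunit (difference 1.13), Ly96, the lipopolysaccharide co-receptor (0.90), and Tlr7, a receptor for single-stranded RNA (0.39). With median centring 0 of the 14 were higher and 4 lower, against 16.7% and 32.8% of all genes in that setting. Of the 3 described chemokine genes 0 stood apart, against 29.7% of all genes higher and 5.73% lower. Cxcl12 was higher without overlap with TMM factors and without Gusb in the scaling. The differences were 0.53 for Ccl2, which attracts monocytes, 0.34 for Cxcl12 and 0.07 for Cxcl5. The median differences of the 3 lists were 0.42, 0.11 and 0.34 in the order given, and changed sign with median centring, to -0.16, -0.32 and -0.047.

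Of 6 described immediate early genes, which neurons switch on with activity, 3 were lower without overlap, against 5.73% of all genes, and 0 higher. The transcription factor Egr1 had 212, 363 and 434 scaled counts in strong libraries and 613, 934 and 955 in weak ones, a difference of -1.36. Its relative Egr3 had 51.0, 79.6 and 132.7 in strong libraries and 139.5, 148.4 and 173.9 in weak libraries. Ptgs2, the inducible prostaglandin synthase that neurons also express with activity, had 83.4, 169.9 and 207 against 219, 244 and 257. The other 3 overlapped: Fos (-0.11), Jun (0.22) and Egr2 (-0.50), the last being lower without overlap with Polr2a scaling. The separation of Egr1 held under all 7 scalings, that of Egr3 was lost without Gusb in the scaling, and that of Ptgs2 was lost there and with all 20 housekeeping genes.

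Cyfip2, a synaptic actin regulator, had 1127, 1450 and 1999 scaled counts in strong libraries and 2780, 2844 and 2889 in weak ones. The neurofilament gene Nefl, the other described neuronal gene, had 379, 491 and 651 in strong libraries and 635, 761 and 863 in weak ones, so that its sets overlapped narrowly, in the strong library of animal 12 and the weak one of animal 3. Nefl was lower without overlap under each of the other scalings except the one without Gusb, and Cyfip2 under all of them. Cd200, a neuronal surface protein that restrains microglia, had 229, 295 and 339 in strong libraries and 389, 416 and 421 in weak ones. Tfrc, the transferrin receptor, had 406, 471 and 609 against 756, 775 and 878. Strong libraries had 958, 1070 and 1418 scaled counts of the glycolytic enzyme Gpi1, against 1590, 1640 and 1953 in weak libraries. Lrrn3, a neuronal leucine-rich repeat protein, differed less, by -0.35, with its lowest value of 86.6 in animal 8. No oligodendrocyte marker of the list was on the panel, and the 1 astrocyte marker on it had a mean raw count of 2.4, below the negative control means.

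Of 12 described kinase genes (of 14 on the panel) 2 were lower and 1 higher without overlap, against 5.73% and 29.7% of all genes, with a median difference of -0.34. Map2k4, an activator of the stress kinase JNK, had 62.4, 112.2 and 127.3 scaled counts in strong libraries and 167.9, 172.5 and 189.8 in weak ones. Prkce, a protein kinase C isoform, had 255, 367 and 558 against 571, 595 and 631, so close that the sets overlapped without Gusb in the scaling. Mapk8, which encodes JNK1, had 100.5, 140 and 185.9 in strong libraries and 176, 248 and 256 in weak ones, an overlap through animals 7 and 3. Mapkapk2, a kinase downstream of p38, was the 1 member higher without overlap (difference 0.75), but its sets overlapped with Polr2a scaling and with median centring. The number of kinase genes lower without overlap was 2 here, 5 with TMM and 9 with median centring, settings in which 15.6% and 32.8% of all genes were lower. Mapk8 was lower without overlap under TMM, DESeq2, Polr2a scaling and median centring. Of 4 described apoptosis genes 0 stood apart, against 29.7% of all genes higher and 5.73% lower. Their differences lay between -0.15 for Bax and 0.02 for Bcl2l1. With median centring 2 of the 4 were lower without overlap, against 32.8% of all genes in that setting. With DESeq2's size factors 1 of the 4 was, against 20.3% of all genes. Of 5 described autophagy genes 1 was higher without overlap, Lamp2, a share below the 29.7% of all genes. With Polr2a scaling and with median centring 0 of the 5 were higher, settings in which 22.9% and 16.7% of all genes were higher. Atg7 and Atg10, both of the conjugation machinery, had differences of 0.53 and 0.86 and overlapped. The median difference of the autophagy genes was 0.53 here and -0.047 with median centring.

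**Figure D5:**
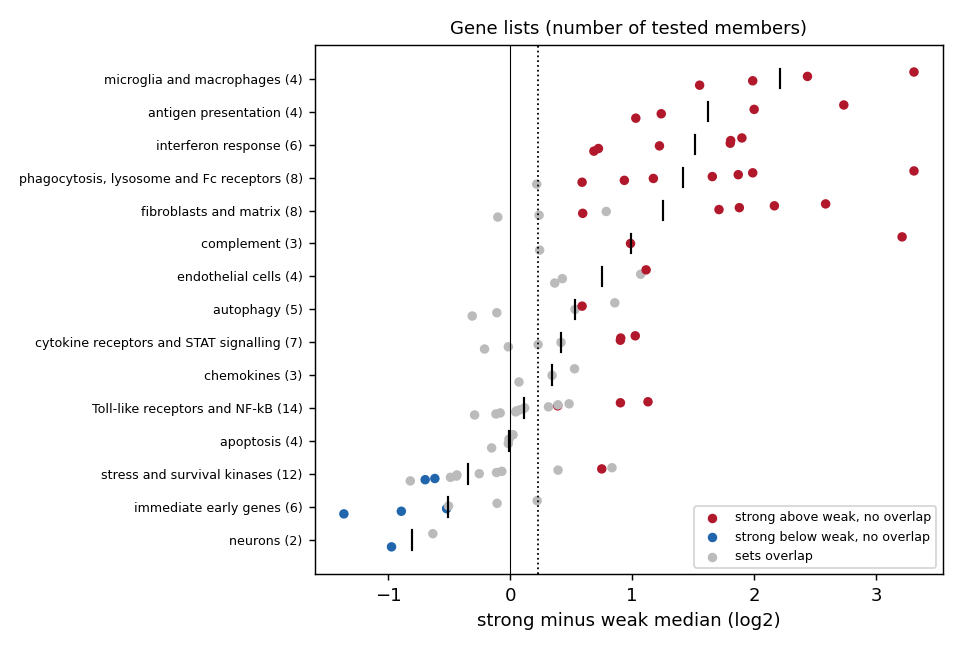
Each point is a described gene of a list, placed by its strong minus weak difference of medians (log2), and the short bars are list medians. Medians run from 2.21 for microglia and macrophages to -0.80 for the 2 neuronal genes, and the dotted line marks the median of all 192 genes, 0.23.

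Housekeeping genes were not wholly level between the sets. Of the 17 used, 2 were higher (Gusb and Nubp1) and 2 lower (Oaz1 and Ppia) without overlap, against 29.7% and 5.73% of the 192 genes. The differences were 0.40 for Nubp1, -0.64 for Ppia and -0.77 for Hprt, whose sets overlapped. Gusb, a lysosomal enzyme, had 46.5, 79.0 and 86.6 scaled counts in strong libraries and 16.2, 35.1 and 46.2 in weak ones. Oaz1 had 55.4, 91.1 and 96.7 against 108.7, 123 and 137. Polr2a itself, the denominator of the rule, had 720, 850 and 1046 in strong libraries and 618, 736 and 740 in weak libraries, a difference of 0.21.

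Markers of neutrophils and B cells lay near the level of the negative controls, and 1 T cell marker, Cd3e, lay above it. The 6 neutrophil genes on the panel summed to 21.2 to 90.1 scaled counts in strong libraries and 23.4 to 32.4 in weak ones, and the highest mean raw count among them was 6.8. The 4 B cell genes summed to 14.3 to 38.1 in strong and 10.96 to 25.95 in weak libraries. The 8 T and NK cell genes summed to 38.3 to 128 against 47.8 to 66.5, and Cd3e, a subunit of the T cell receptor complex with a mean raw count of 21.9, overlapped at 2.94, 17.3 and 29.8 against 11.4, 21.9 and 24.3. In each of these lists the highest strong sum was in the library of animal 8, which had the lowest depth. Its counts were divided by a factor of 0.289, which enlarges values near the background. None of these markers was at 0 in an ipsilateral library, since the lowest deposited count is 1. The part of these cells in the differences above was not tested.

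The strong libraries were not alike. The median over the 57 higher genes of a library's log2 value above the weak median was 0.89 in animal 2, 1.05 in animal 4, 1.09 in animal 12, 1.17 in animal 11, 1.53 in animal 6 and 1.59 in animals 7 and 8. The same median over all 192 genes was 0.07, 0.11, 0.19, 0.18, 0.24, 0.46 and 0.48 in animals 2, 4, 12, 11, 6, 7 and 8. Under this scaling the median over all genes thus differed between strong libraries too, and was highest in animals 7 and 8. Animal 2, with the lowest Lgals3 ratio, was the lowest strong library in 29 of the 57 genes. Animals 7 and 6 were the highest in 25 and 17 of them. For the 11 lower genes, animal 6 was farthest below the weak libraries in 7. Without the strong library of animal 2 the higher genes numbered 64, and without that of animal 8 they numbered 57.

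How other genes varied with Lgals3 among the 7 strong libraries was described for 10 genes. Since Lgals3 chose these libraries and most of the genes were taken for their large differences, no p is given. All values of a library also share its scaling factor, and treated and untreated animals may be mixed. Pearson's r with Lgals3 was 0.95 for Apoe, 0.92 for Anxa1 and 0.91 for Lyz2, with Spearman's rho of 0.93, 0.96 and 0.93. These r were 0.84, 0.88 and 0.87 with TMM factors and 0.92, 0.89 and 0.88 with median centring. Without animals 2 and 8, whose Lgals3 lay farthest from the median, they were 0.85, 0.99 and 0.91 over 5 libraries. For Vim r was 0.84 and for C4b 0.78. Cd68, another of the genes that mark the response, had r = 0.67 over 7 libraries and 0.28 over the 5, and A2m and Fn1 had 0.65 and 0.64. Map2k4 (r = -0.59) and Egr1 (r = -0.48), both lower in strong libraries, ran the other way.

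The labels allow a test between the hemispheres over all 10 animals, strong and weak together. Of 193 genes, 91 (47.2%) were called higher and 20 (10.4%) lower ipsilaterally with edgeR's quasi-likelihood test at an adjusted p under 0.05. With TMM factors 58 were higher and 47 lower, and with median centring 39 and 71. Fewer were called lower without single animals, 9 without animal 11, 11 without animal 7 and 12 without animal 2, 6, 8 or 12. The log2 fold change, ipsilateral over contralateral, was 2.65 ± 0.37 (SE) for Cd68 (edgeR adjusted p = 0.000715), and Cd68 was higher than in the opposite hemisphere in 7 of 7 strong and 3 of 3 weak animals. It was 2.00 ± 0.30 (SE) for C4b (edgeR adjusted p = 0.000786), which was higher in 7 of 7 strong and 2 of 3 weak animals. For Il6st it was 0.52 ± 0.15 (SE, edgeR adjusted p = 0.0123), with 7 of 7 strong and 1 of 3 weak animals higher. For Egr1 it was -0.92 ± 0.21 (SE, edgeR adjusted p = 0.0033), and Egr1 was lower in 7 of 7 strong and 3 of 3 weak animals. Cd200 had -0.22 ± 0.09 (SE, edgeR adjusted p = 0.0479), being lower in 7 of 7 strong animals and higher in 3 of 3 weak animals. Mapkapk2 had 0.26 ± 0.15 (SE, edgeR adjusted p = 0.142) over the 10 animals, although it was higher in 7 of 7 strong animals.

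The levels were also set beside those of the contralateral side. In 43 of the 57 higher genes all 3 weak libraries lay within the range of the 10 contralateral libraries, and in 53 all 7 strong libraries lay above that range. Cd68 had 9.01 to 29.4 scaled counts contralaterally (median 18.4), around the weak values given above. In 8 of the 11 lower genes all weak libraries lay in the contralateral range, and in 3 all strong libraries lay below it. The higher and lower genes were chosen for not overlapping in these same ipsilateral values. That choice favours strong libraries outside the contralateral range. Weak libraries also lay within the contralateral range in many genes whose sets overlapped. The shares over all described genes are not given here, so these counts are a description without a background. Contralateral libraries belong to another counting set by their column headers, with positive control geometric means of 342 to 540 against 544 to 715 in the 10 ipsilateral libraries, so set and hemisphere cannot be told apart. In the contralateral libraries themselves, Cd74 had 72.0 to 393 scaled counts opposite strong hemispheres and 27.0, 41.6 and 49.8 opposite weak ones. Lgals3 overlapped there, with 14.3 to 41.8 opposite strong and 9.01, 9.46 and 18.7 opposite weak hemispheres.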

How the data were processed

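RNA was hybridised to a NanoString panel and counted digitally, with analysis in nSolver, per the labels' protocols and the series design. The authors deposited whole-number counts per probe for 750 endogenous genes, 20 housekeeping genes, 8 negative and 6 positive controls. The design speaks of normalized values, but the deposited values look like raw counts and were treated as such. The 2 deposited tables hold the same counts under different animal numbers in 20 of 20 columns, with the same hemispheres paired, and animals are numbered here as in the matrix. Each animal gave 1 library per hemisphere, so p-values set the hemisphere difference against its spread from animal to animal.

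The members, gene lists and tests were chosen with earlier results of these data known. Because strong and weak libraries were divided by a measured outcome, no mean, SD or test is given between them. Library factors were the geometric mean of 17 housekeeping genes whose mean count was at least 20. Named were Lgals3, Polr2a, Cd68, Vim, the 16 largest positive and 10 largest negative differences among genes without overlap, up to 4 members per list with the largest difference, and 13 genes fixed by name. Ddx60, Mertk, Tgfb2, Tgfb3, Tlr7 and the housekeeping genes Nubp1, Ppia and Hprt were added after their values were seen. Some genes that this rule names are not reported here.

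Hemispheres were compared with edgeR 4.0.16 (R 4.3.3), the quasi-likelihood test with the animal as a block, adjusted by Benjamini-Hochberg over 193 genes. The pairing comes from the titles. Residuals of the hemispheres of an animal correlated between -0.21 and 0.499, above 0.1 in 5 of 10 animals. No libraries were repeats within sampling noise (chi-square per degree of freedom 1.96 to 93.8). In 10 simulations of this comparison over 193 genes, edgeR recovered 75% of 1.5-fold, 99.2% of 2-fold and 100% of 4-fold changes, and called 0.98% of unchanged genes. Alternatives were other scalings, background subtraction, other minimum counts, a pseudocount of 5 in place of 1, DESeq2 1.42.0 and leaving out libraries.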

Additional observations from a re-analysis of the deposited data

Results flagged for a closer look

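Values of 72 named genes and 4 library measures were searched for a library far from the rest of its set, in the 7 strong and in all 10 ipsilateral libraries. By chance about 1 in 20 of such searches picks out a library, 7.6 of 152, and 12 did. Of these, 10 concern the strong library of animal 8. Among the 7 strong libraries its housekeeping geometric mean was 47.5 counts against a median of 163, and its total was 38015 against 97892. It was also lowest for Oaz1 (55.4 scaled counts against a median of 91.1) and Lrrn3 (86.6 against 180), and highest for Vegfa (779 against 595) and Cxcl5 (62.4 against 22.4). Among all 10 ipsilateral libraries it was lowest for the housekeeping mean (47.5), the negative control mean (3 against 6), Oaz1 (55.4) and Lrrn3 (86.6). Cd3e was lowest in the ipsilateral library of animal 6, at 2.94 scaled counts against 17.4, and Abcb1a in that of animal 3, at 27.6 against 66.8.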

How the results depend on the processing

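The 5 other ways of dividing the libraries gave the same 7, but each reuses Lgals3 or Polr2a. Genes higher without overlap numbered 57, with 32 under median centring, 88 with no minimum count, and between 39 (minimum count 50) and 70 under the other alternatives. Genes lower without overlap numbered 11, with 7 without Gusb in the scaling, 30 with TMM, 39 with DESeq2's size factors, 37 with Polr2a scaling and 63 with median centring. The share of higher genes was 83.8% here, 64.7% with TMM, 54.7% with DESeq2's size factors, 54.3% with Polr2a scaling and 33.7% with median centring. Leaving out single ipsilateral libraries gave 57 to 70 higher and 11 to 19 lower genes, with 19 lower without animal 3 and 18 without animal 4. Leaving out animals 2 and 8 together, chosen after seeing the data, gave 65 and 14. The minimum over contralateral libraries, also added later, gave 53 and 11. No named gene that stood apart changed the sign of its difference. Hemisphere calls were 91 higher and 20 lower, with 58 and 47 under TMM, 39 and 71 under median centring, and 55 and 48 with DESeq2. Without the replicate block they were 96 and 13. Leaving out single animals gave 73 to 104 higher and 9 to 23 lower calls. Hemisphere fold changes with another sign under median centring were those of Jun (-0.16), Tek (-0.082), Ikbkb (-0.078), Bcl2l1 (-0.29) and Atg7 (-0.12), and that of Jun with DESeq2 (-0.020). The correlations of Anxa1, Lyz2 and Apoe with Lgals3, given without a test, were r = 0.88, 0.87 and 0.84 with TMM and r = 0.99, 0.91 and 0.85 without animals 2 and 8. Low counts limit genes near the background: 557 of 750 genes lay under the minimum.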

Other observations

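Of the genes under the minimum count, 9 had a median raw count of at least 20 in the strong libraries, and they were singled out for this reason after their values were seen. By scaled counts 4 of the 9 were higher in every strong library than in every weak one. The share was 29.7% of the 192 genes at the minimum and 11.7% of 749 genes with no minimum count. Ncf4, a subunit of the phagocyte NADPH oxidase, had median raw counts of 28 in strong and 11 in weak libraries, a log2 difference of scaled medians of 1.84. Cfd, complement factor D, had 28 and 10 (difference 1.66), and F13a1, a transglutaminase chain found in macrophages, had 24 and 7 (1.502). Usp18, an interferon-induced protease, had 28 and 11 (1.22). The other 5 overlapped: Ifi35, H2-Ab1, Pdgfrb, Il18 and Tgfbr1. Selection by a high strong median favours positive differences, so these values are a description of genes near the background and no test was made.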
